A study of Mus musculus with 36 samples.

Results

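The glucocorticoid receptor and 7 genes long known to be switched on by it were followed here by name, Nr3c1, Fkbp5, Tsc22d3, Klf9, Sgk1, Dusp1, Zfp36 and Errfi1, which are 8 of the 27562 genes with an FPKM value (fragments per kilobase of exon, scaled to the mapped fragments of the library) in the study. The libraries came from bone marrow chimeras, in which male C57BL/6J mice carrying the CD45.2 form of the leukocyte antigen were irradiated with the chest shielded, given busulfan and transplanted with marrow of CD45.1 donors (B6.SJL-Ptprca Pepcb/BoyJ). All mice shared this conditioning, were 6 to 8 weeks old when bought, and then breathed filtered air (FA) or concentrated fine particulate matter (PM2.5) for 4 or 32 weeks. Alveolar macrophages (AΦ, sorted as CD64+ CD11c high CD11b low) and lung monocytes (Ly6G- MHC II- CD64 low CD11b high) were isolated after enzymatic digestion of the lung, so that CD45.2 cells derive from the host and CD45.1 cells from the transplanted marrow. Tissue-resident AΦ (TR-AΦ, CD45.2) and CD45.2 monocytes were sequenced at both times, and bone marrow-derived AΦ (BM-AΦ, CD45.1) and CD45.1 monocytes at 32-weeks only. With FA and PM2.5 this gives 12 groups of 3 libraries, 36 in all. The origin of the 32-weeks monocytes was read from the numbering that the labels explain for AΦ, and is not spelled out for monocytes. According to the methods, 3 mice were taken per exposure and time, so the cell populations of one condition share their mice, and the labels do not say which libraries come from the same mouse.

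Corticosterone, the glucocorticoid of mice, enters cells freely and binds the receptor encoded by Nr3c1, which is held in the cytoplasm by a chaperone complex of HSP90 and its partners. The bound receptor moves to the nucleus, where it occupies palindromic response elements and raises transcription of nearby genes, and it also dampens genes driven by NF-κB and AP-1. Corticosterone follows a daily rhythm and rises with handling and stress. In macrophages the hormone is known for restraining cytokine release and for favouring the uptake of dying cells. The targets described here fall into a negative feedback gene (Fkbp5), genes of broad hormone response (Tsc22d3, Klf9, Sgk1) and brakes on inflammatory signalling and growth factor signalling (Dusp1, Zfp36, Errfi1). The last group, and Sgk1, are also switched on by stress, serum and inflammatory stimuli without any hormone.

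Of the 8 genes, 7 matched a RefSeq promoter table of build GRCm38.p6, with 15 windows from 250 bases before to 50 bases after a transcription start. These windows were searched on both strands for the receptor's palindrome (GNACA, any 3 bases, TGTNC), its single arm AGAACA, the cyclic AMP element TGACGTCA and the AP-1 site TGANTCA. Over all 32851 promoter windows of the table, 0.475% held the palindrome, 19.0% the single arm, 1.79% the cyclic AMP element and 7.81% the AP-1 site. A few windows are shown because they carry a match, or, for Fkbp5, because the gene gave the largest differences described below; capitals mark a palindrome, a cyclic AMP element or an AP-1 site.
Fkbp5: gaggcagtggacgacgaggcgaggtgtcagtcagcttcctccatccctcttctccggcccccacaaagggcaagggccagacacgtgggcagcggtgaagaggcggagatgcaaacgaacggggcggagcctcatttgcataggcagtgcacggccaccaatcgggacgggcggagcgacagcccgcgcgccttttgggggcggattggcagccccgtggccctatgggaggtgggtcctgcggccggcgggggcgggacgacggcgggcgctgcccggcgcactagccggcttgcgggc
Klf9: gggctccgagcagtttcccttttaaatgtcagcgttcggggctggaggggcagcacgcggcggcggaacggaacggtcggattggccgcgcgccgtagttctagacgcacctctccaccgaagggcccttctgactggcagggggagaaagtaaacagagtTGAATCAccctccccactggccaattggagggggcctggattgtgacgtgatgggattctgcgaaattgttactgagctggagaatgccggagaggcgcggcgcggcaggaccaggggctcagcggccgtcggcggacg
Sgk1: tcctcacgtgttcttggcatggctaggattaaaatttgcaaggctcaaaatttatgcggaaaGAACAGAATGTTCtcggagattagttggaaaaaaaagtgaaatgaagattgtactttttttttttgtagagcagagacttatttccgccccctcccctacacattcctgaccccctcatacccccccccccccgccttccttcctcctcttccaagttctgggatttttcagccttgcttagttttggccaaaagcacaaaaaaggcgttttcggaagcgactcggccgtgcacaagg
Dusp1: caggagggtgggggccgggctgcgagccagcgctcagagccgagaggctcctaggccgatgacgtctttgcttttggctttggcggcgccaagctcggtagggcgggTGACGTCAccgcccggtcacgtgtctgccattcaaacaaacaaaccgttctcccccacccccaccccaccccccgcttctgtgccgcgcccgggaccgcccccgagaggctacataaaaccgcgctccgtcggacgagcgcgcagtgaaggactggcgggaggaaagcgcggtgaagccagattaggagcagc
Errfi1: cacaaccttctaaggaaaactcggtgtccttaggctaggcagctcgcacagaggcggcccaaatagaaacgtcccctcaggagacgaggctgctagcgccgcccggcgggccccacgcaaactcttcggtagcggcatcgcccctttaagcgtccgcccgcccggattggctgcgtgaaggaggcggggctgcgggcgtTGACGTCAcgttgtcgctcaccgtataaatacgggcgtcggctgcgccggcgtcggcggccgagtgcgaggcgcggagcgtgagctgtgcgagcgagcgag
The Fkbp5 window lies at chr17:28486100-28486399 on the minus strand, held no match, and is 70.7% G and C. The Klf9 window (chr19:23140976-23141275, plus strand) held 1 AP-1 site. The Sgk1 window, at chr10:21993640-21993939 on the plus strand, was the single one of the 15 with a palindrome, at positions -188 to -176 from the start, and single arms overlap it. Dusp1 (chr17:26508423-26508722, minus strand) had its cyclic AMP element at -143 to -136, and Errfi1 (chr4:150854820-150855119, plus strand) at -51 to -44. A single arm without a palindrome occurred in a window of Tsc22d3 (chrX:140600473-140600772) and in 2 other Sgk1 windows (chr10:21881934-21882233 and chr10:21991973-21992272). These matches describe letters in short windows. Glucocorticoid response elements often lie far from the start, and nothing about receptor binding was measured.

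In the annotation of the deposited table (mm10), Fkbp5 spans chr17:28399095-28517524 and Dusp1 chr17:26505590-26508519, both on the minus strand. Tsc22d3 spans chrX:140539528-140600659 and Zfp36 chr7:28376784-28392708, also on the minus strand. On the plus strand, Klf9 spans chr19:23141226-23166911, Sgk1 chr10:21882184-21999903 and Errfi1 chr4:150825733-150868892. Nr3c1 is on chromosome 18. The values are per gene, with exons and isoforms merged by the authors.

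The sorted populations carried their defining markers: the summed FPKM of 11 AΦ markers was 6724 to 14340 in AΦ libraries and 291 to 1718 in monocyte libraries, and that of 10 monocyte markers was 26.9 to 234 and 1749 to 4186, respectively. Summed markers of B cells, eosinophils and endothelium stayed at or below 47.5 in every library, those of neutrophils and dendritic cells reached 159 and 162 in monocytes, those of red cells 157 in monocytes and 63.1 in AΦ, and those of epithelium 178 in AΦ. The 4-weeks libraries numbered 2 stood apart. Their monocyte marker sum in TR-AΦ was 234 in FA and 218 in PM2.5, against 44.8 to 51.7 in the other 4 libraries, and their T and NK marker sum in CD45.2 monocytes was 71.6 and 84.4, against 4.18 to 13.7, made up mostly of Gzma, a granzyme (55.6 and 65.6), while the CD3 chain genes of T cells, Cd3d, Cd3e and Cd3g, did not exceed 1.58. Where these libraries change a call among the 8 genes, the value without them is given. The files hold FPKM, so the read depth of each library is unknown, and a lower value in a sorted bulk library cannot tell fewer expressing cells from less RNA per cell.

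Nr3c1, the receptor itself, varied least of the 8 genes. Group means ran from 36.7 ± 2.57 FPKM (SD, n = 3) in TR-AΦ of FA mice at 32-weeks to 62.4 ± 14.1 in CD45.2 monocytes of FA mice at 4-weeks, a 1.70-fold range, and among the 11 pairs of neighbours in that order 0 had ranges that did not overlap. The 2 highest libraries of all were the CD45.2 monocytes numbered 2 at 4-weeks, with 78.4 FPKM in FA and 86.2 in PM2.5. The other 4 libraries of these groups had 44.9 to 57.0 FPKM.

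Fkbp5 encodes a co-chaperone that binds the HSP90 complex and lowers the receptor's affinity for hormone, which closes a short feedback loop, and it had the widest range, 13.6-fold between group means. In FA monocytes of CD45.2 origin the 3 libraries gave 5.80, 5.15 and 5.85 FPKM at 4-weeks and 66.9, 57.6 and 71.5 at 32-weeks. In TR-AΦ of FA mice they gave 20.99, 19.5 and 19.3 at 4-weeks and 54.7, 76.6 and 97.4 at 32-weeks. In both cell types every 32-weeks FA library was thus above every 4-weeks FA library. The share of all genes that separate in this way in FA mice is not given here. After PM2.5 the 4-weeks values were 29.8, 26.3 and 22.8 in TR-AΦ and 10.97, 24.7 and 10.7 in CD45.2 monocytes, all above the FA libraries of the same time. At 32-weeks the order was the other way round: PM2.5 libraries gave 35.4, 58.2 and 21.6 in TR-AΦ, 35.95, 49.7 and 20.9 in BM-AΦ, 35.0, 44.5 and 7.37 in CD45.1 monocytes, and 40.1, 54.6 and 9.21 in CD45.2 monocytes. The FA libraries were at 56.7, 71.1 and 88.3 in BM-AΦ and at 49.4, 54.9 and 69.1 in CD45.1 monocytes. Only in TR-AΦ did the 32-weeks ranges overlap, where a PM2.5 library at 58.2 exceeded an FA library at 54.7.

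Klf9, a Krüppel-like transcription factor that answers both hormone and the clock, was lowest in TR-AΦ at 4-weeks, at 8.57, 10.1 and 10.7 FPKM in FA and 13.6, 11.5 and 15.2 in PM2.5. At 32-weeks TR-AΦ had 21.4, 34.2 and 24.5 in FA and 24.9, 20.6 and 11.2 in PM2.5, and BM-AΦ had 25.0, 35.0 and 29.2 in FA and 24.0, 25.9 and 13.3 in PM2.5. Monocytes of CD45.2 origin went from group means of 18.7 ± 1.67 (FA) and 16.8 ± 1.90 (PM2.5) at 4-weeks to values of 70.4, 38.1 and 39.5 in FA and 46.4, 35.0 and 12.3 in PM2.5, so that 1 PM2.5 library lay below the 4-weeks range. The highest and lowest group means were 5.04-fold apart.

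Tsc22d3 encodes GILZ, a leucine zipper protein that binds NF-κB and AP-1, and its libraries scattered widely. CD45.2 monocytes had the highest mean, 187 ± 92.5 FPKM, in FA at 32-weeks, from libraries of 168, 288 and 106. TR-AΦ of FA mice at 4-weeks had the lowest, with 36.7, 63.7 and 57.6, and with PM2.5 the same cells had 70.7, 77.2 and 129, all above FA. No pair of neighbouring groups in the order had separate ranges.

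Sgk1, a kinase that controls sodium transport and cell survival, was the one gene of the 8 with all AΦ groups above all monocyte groups. Group means were 193 ± 51.7 to 286 ± 52.4 FPKM in AΦ and 48.8 ± 9.58 to 133 ± 41.4 in monocytes. CD45.2 monocytes gave 95.4, 127 and 177 in FA and 69.3, 80.9 and 214 in PM2.5 at 4-weeks, against 42.4, 65.1 and 48.3 in FA and 58.9, 107 and 43.0 in PM2.5 at 32-weeks. The libraries at 177 and 214 are the number 2 libraries with the raised T and NK marker sum.

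The genes that brake inflammatory signalling were all higher in monocytes. Dusp1, the phosphatase that switches off p38 and JNK kinases, had group means of 494 ± 179 to 786 ± 445 FPKM in AΦ and 1238 ± 63.3 to 2136 ± 273 in monocytes. Zfp36 encodes tristetraprolin, which binds AU-rich elements and speeds the decay of cytokine mRNAs. Its libraries in TR-AΦ were 1234, 1177 and 929 (FA) and 1074, 860 and 1031 (PM2.5) at 4-weeks, and 621, 415 and 693 (FA) and 517, 454 and 404 (PM2.5) at 32-weeks, so that the 2 times did not overlap. CD45.2 monocytes had 3072, 2331 and 2240 (FA) and 3330, 2707 and 2385 (PM2.5) at 4-weeks, and 1692, 1563 and 1684 (FA) and 1398, 1744 and 1208 (PM2.5) at 32-weeks, again without overlap. Errfi1, an inhibitor of the EGF receptor family, had group means of 9.70 ± 0.791 to 23.2 ± 13.3 in AΦ and 46.9 ± 12.5 to 91.7 ± 43.6 in monocytes. In CD45.2 monocytes at 32-weeks its FA libraries had 67.8, 65.3 and 142 FPKM and its PM2.5 libraries 41.2, 60.7 and 40.9, which did not overlap.

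**Figure D1:**
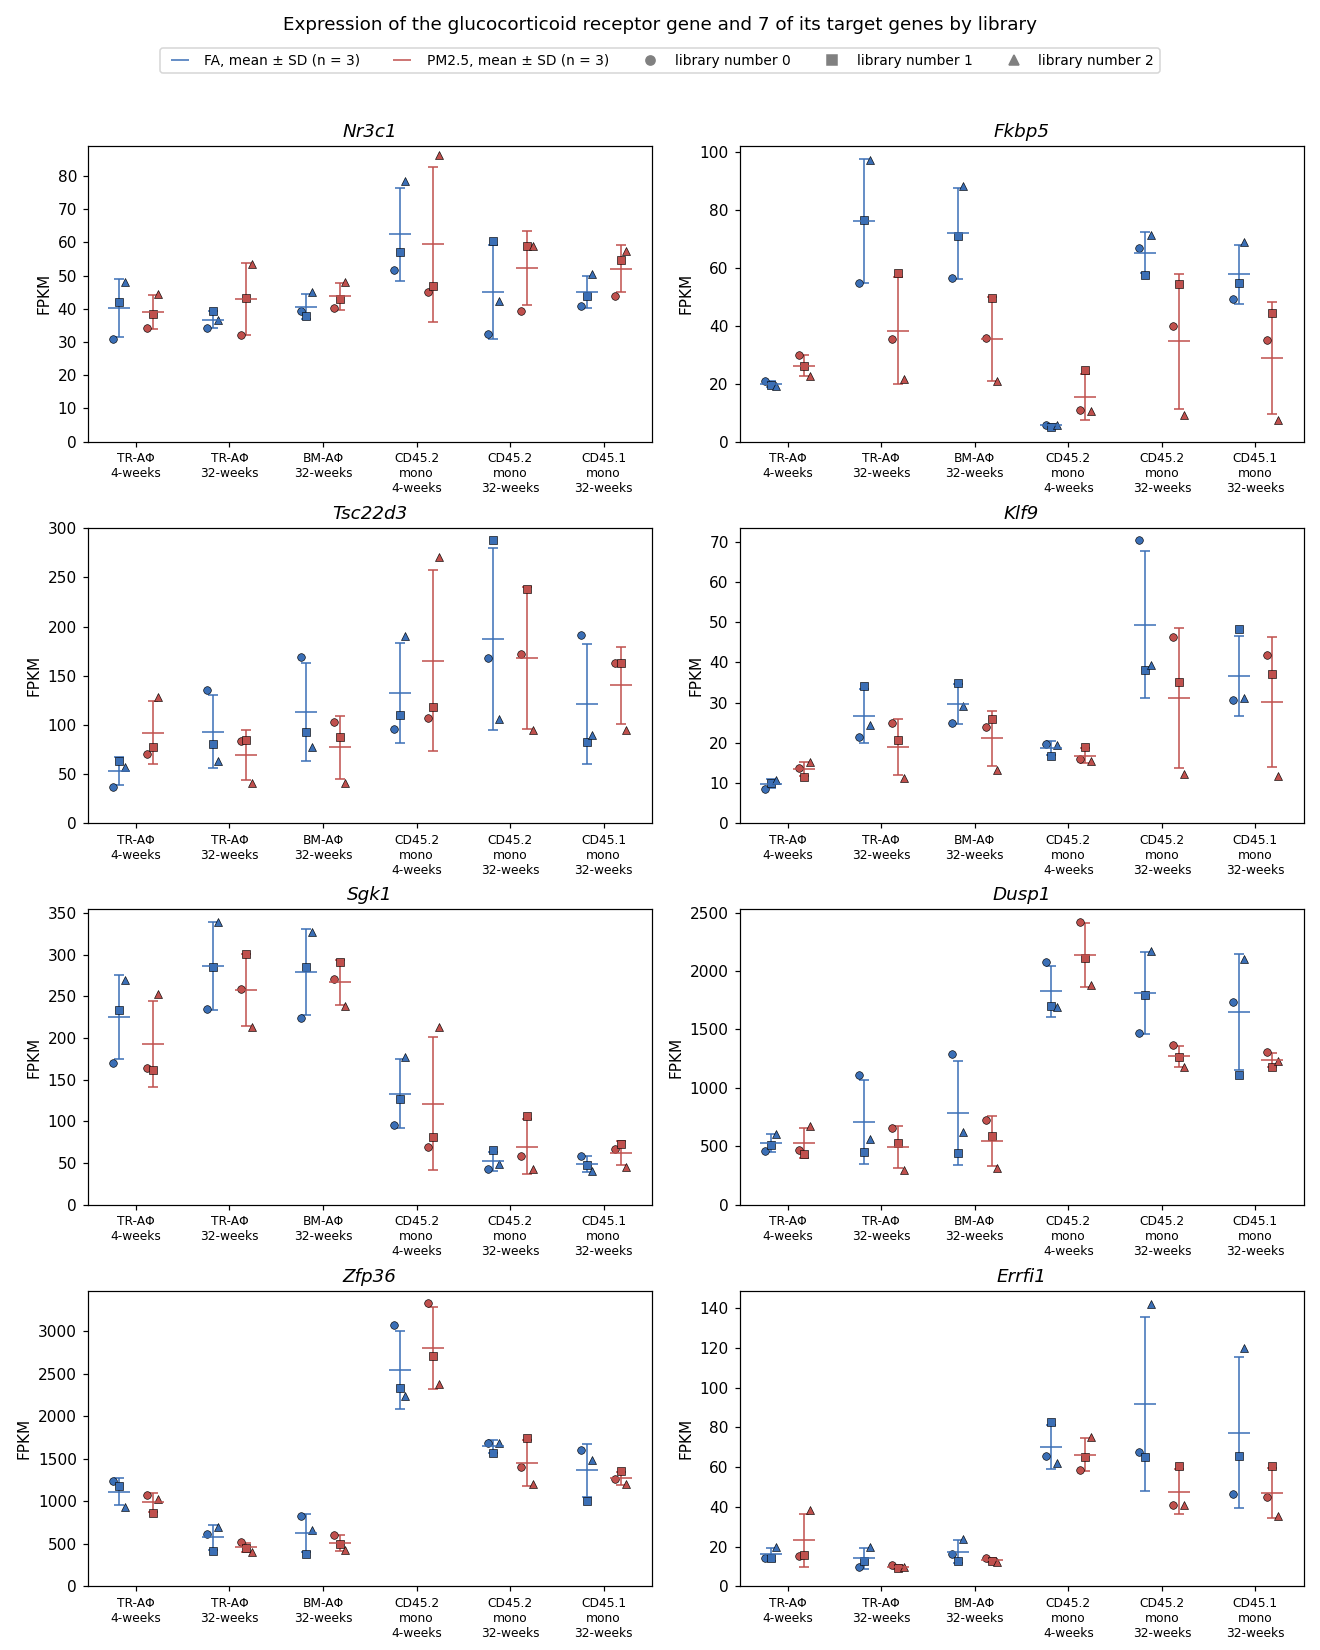
FPKM of each of the 8 genes in the 36 libraries (markers, with the shape giving the library number, FA blue and PM2.5 red) with the mean and SD of the 3 libraries of each group as lines. Fkbp5 is low at 4-weeks in both cell types, Sgk1 is higher in AΦ than in monocytes, and Dusp1, Zfp36 and Errfi1 are higher in monocytes.

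The study asked what PM2.5 does to lung macrophages and monocytes, and none of the 8 genes passed the test for PM2.5 against FA in any of the 6 populations and times. The test was limma on log2(FPKM + 1), fitted on all genes of a cell type with Benjamini-Hochberg adjustment at 0.05, and every fold change below is on that scale as a mean difference ± SE. The test called 0.0079% of 12665 genes in TR-AΦ at 4-weeks, 0% in TR-AΦ at 32-weeks and 0.0158% in BM-AΦ. In monocytes it called 0.00778% of 12856 genes in CD45.2 cells at 4-weeks, and 0% in both CD45.1 and CD45.2 cells at 32-weeks. At an unadjusted p under 0.05, 1 of the 8 genes passed in TR-AΦ and 1 in BM-AΦ at 32-weeks, both times Fkbp5, 1 in CD45.2 monocytes at 32-weeks, Errfi1, and 0 in the other 3 comparisons. Over the 6 comparisons 2.05% to 4.74% of all genes did so.

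For Fkbp5 the PM2.5 difference was 0.38 at 4-weeks in TR-AΦ (95% interval -0.35 to 1.11) and 1.22 in CD45.2 monocytes (-0.10 to 2.53). At 32-weeks it was -1.04 in TR-AΦ (-1.77 to -0.31), -1.06 in BM-AΦ (-1.79 to -0.33), -1.28 in CD45.1 monocytes (-2.60 to 0.04) and -1.21 in CD45.2 monocytes (-2.53 to 0.11). In limma the adjusted p was 0.946 in CD45.1 monocytes and 1 in the other 5. Without PM2.5 library 2 the 32-weeks differences were -0.70 in TR-AΦ, -0.73 in BM-AΦ, -0.52 in CD45.1 monocytes and -0.47 in CD45.2 monocytes. The difference between the 32-weeks and the 4-weeks effect was -1.42 in TR-AΦ and -2.43 in CD45.2 monocytes, each with adjusted p = 1 in limma. Fkbp5, Tsc22d3 and Klf9 had all PM2.5 libraries above all FA libraries in TR-AΦ at 4-weeks, where 5.82% of all tested genes had ranges that did not overlap. At 32-weeks 0 of the 8 genes did so in TR-AΦ (5.98% of all genes) and Fkbp5, lower with PM2.5, did so in BM-AΦ (6.44%). In monocytes the count was 1 gene at 4-weeks (Fkbp5, higher, against 6.57% of all genes), 1 in CD45.1 cells at 32-weeks (Fkbp5, lower, against 8.89%) and 3 in CD45.2 cells at 32-weeks (Fkbp5, Dusp1 and Errfi1, lower, against 6.39%). Over the 8 genes the median PM2.5 difference at 32-weeks was -0.43 in TR-AΦ, -0.41 in BM-AΦ, -0.22 in CD45.1 monocytes and -0.35 in CD45.2 monocytes, beside medians over all tested genes of 0.00, -0.01, 0.03 and 0.02. Of the 8 genes 7, 7, 5 and 6 were lower with PM2.5, respectively, beside 48.69%, 52.49%, 44.35% and 45.02% of all tested genes. On leaving out 1 library, the 7 lower genes in TR-AΦ stayed below 0, with Tsc22d3 between -0.66 and -0.08. Signs did not always hold elsewhere: Klf9 in CD45.1 monocytes ran from -0.75 to 0.13 and Tsc22d3 in CD45.2 monocytes from -0.48 to 0.23. These 4 populations come from the same mice and are not 4 independent observations. At 4-weeks the medians were 0.18 in TR-AΦ and 0.03 in CD45.2 monocytes.

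**Figure D2:**
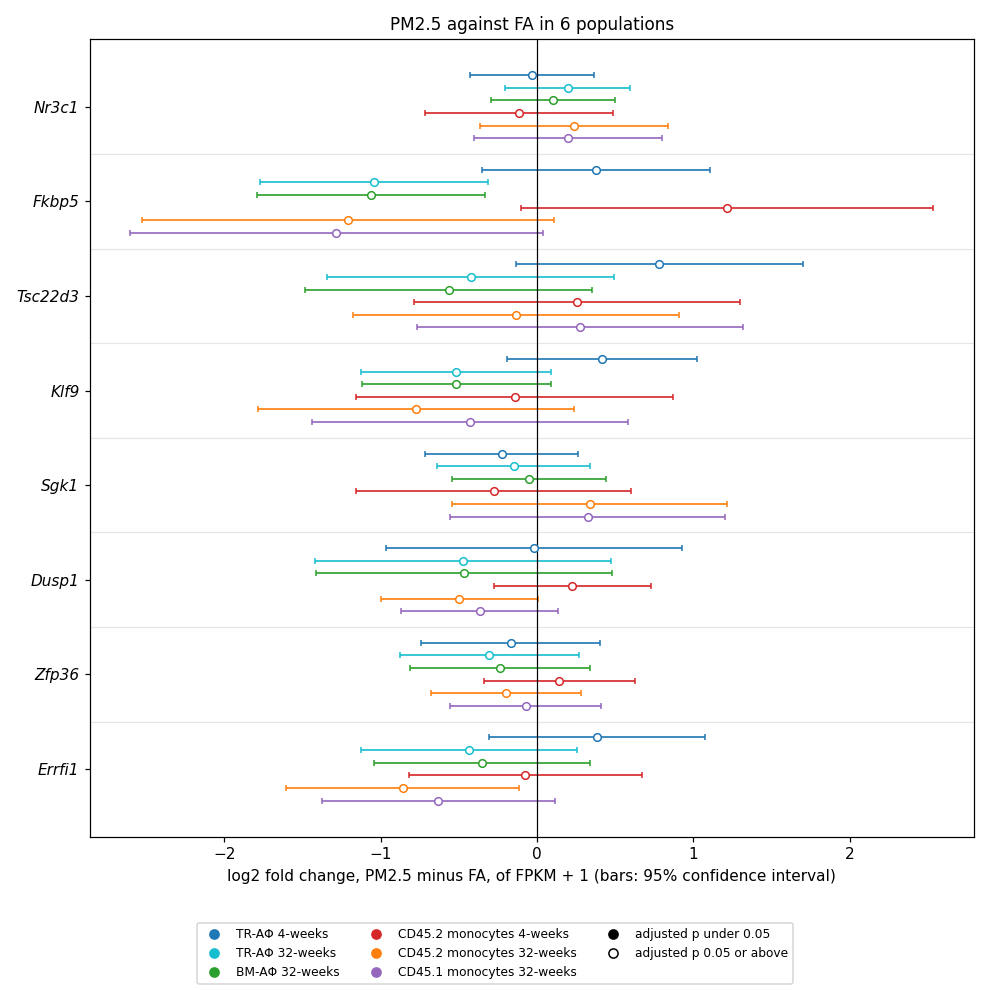
Difference of PM2.5 minus FA in log2(FPKM + 1) for each gene in the 6 populations and times, with 95% intervals from limma (3 libraries against 3). For Fkbp5 the 2 differences at 4-weeks lie above 0 and the 4 at 32-weeks below 0, and no difference passed the adjusted threshold.

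At 32-weeks, libraries of one condition that carry the same number resembled each other in these genes. With PM2.5 at 32-weeks, the library numbered 2 was the lowest of its 3 in all 4 populations for Fkbp5, Tsc22d3, Klf9, Sgk1 and Zfp36. In FA at 32-weeks, number 2 was the highest in all 4 for Fkbp5 and Errfi1. At 32-weeks the number accounted for 86.7% of the within-group variance of log2(FPKM + 1) for Fkbp5, 80.3% for Errfi1, 78.1% for Klf9, 76.6% for Tsc22d3 and 71.7% for Zfp36, and for 62.2%, 55.1% and 51.6% for Nr3c1, Sgk1 and Dusp1. The median over 13190 genes was 40.1%, and 25% is what numbers without meaning would give. At 4-weeks, with 2 populations, the median was 60.3% and numbers without meaning would give 50%. There Klf9 (15.2%), Dusp1 (15.9%) and Fkbp5 (52.1%) lay below the median. Errfi1 (62.4%), Zfp36 (76.1%), Nr3c1 (84.6%), Tsc22d3 (87.7%) and Sgk1 (88.0%) lay above it. Averaging the 4 populations of 32-weeks by number leaves 3 values per exposure, a check added after the values were seen. The PM2.5 difference of these averages was -1.15 for Fkbp5 and -0.57 for Errfi1, each with p = 0.1 in a two-sided exact permutation test, the smallest p that 3 against 3 can give. The same exact permutation test gave p = 0.2 for Klf9 (-0.56) and 0.3 to 0.7 for the other 5 genes. The 32-weeks libraries numbered 2 also had the highest summed red cell markers of their groups, 17.7 to 85.7 FPKM in all, whose part in these values was not tested.

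**Figure D3:**
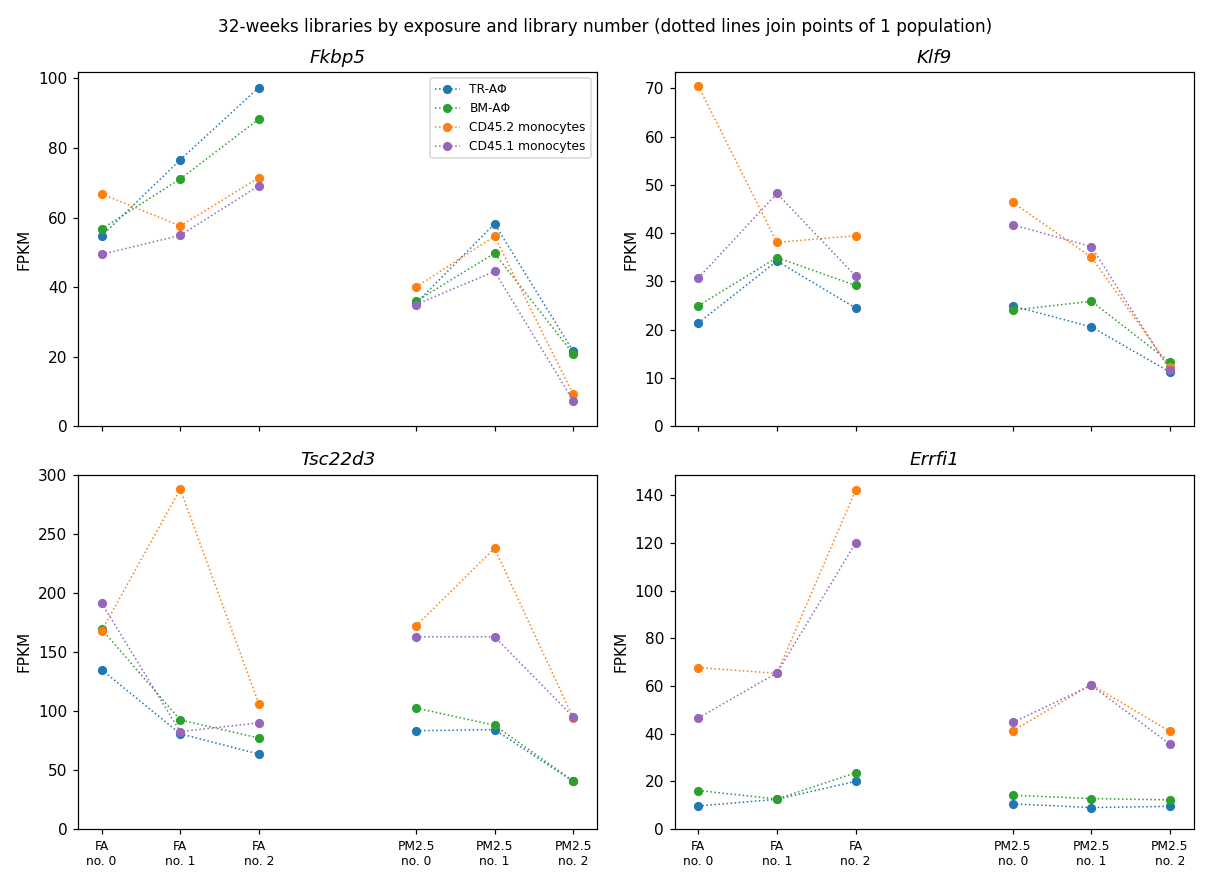
FPKM of Fkbp5, Klf9, Tsc22d3 and Errfi1 in the 32-weeks libraries, by exposure and library number, with dotted lines joining the libraries of one population. The PM2.5 library numbered 2 is the lowest of its 3 in all 4 populations for Fkbp5, Klf9 and Tsc22d3, and the FA library numbered 2 the highest for Fkbp5 and Errfi1.

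The comparison of 32-weeks with 4-weeks, made within TR-AΦ and within CD45.2 monocytes, set older mice with longer exposure and longer time after transplant against younger ones, and age, time, harvest day and preparation cannot be told apart. Fkbp5 rose and Zfp36 fell in both cell types with the mean of both exposures. In TR-AΦ, 3 of 8 genes passed the test, where 5.91% of all genes did: Fkbp5 rose by 1.14 ± 0.24 (adjusted p = 0.0146 in limma), Klf9 rose by 0.87 ± 0.20 (0.0222) and Zfp36 fell by 1.04 ± 0.19 (0.00627), a factor of 2.06. The Klf9 call was lost on leaving out FA library 1 or PM2.5 library 0 or 1 at 32-weeks, or FA library 0 or PM2.5 library 1 at 4-weeks (adjusted p = 0.0505 to 0.0573). Sgk1 differed by 0.40 (0.163) and passed without the 4-weeks libraries numbered 2 (0.57, 0.0467). In CD45.2 monocytes, 3 of 8 passed, where 14.9% of all genes did: Fkbp5 rose by 2.11 ± 0.44 (adjusted p = 0.00491), Zfp36 fell by 0.79 ± 0.16 (0.00445) and Sgk1 fell by 1.01 ± 0.29 (0.0299), while Klf9 differed by 0.99 ± 0.33 (0.0633). The Sgk1 call did not survive leaving out both 4-weeks libraries numbered 2, with -0.65 and adjusted p = 0.13, and was also lost without the 32-weeks libraries numbered 2 (-0.85, adjusted p = 0.126). Leaving out any 1 of 7 libraries ended it too (at 32-weeks FA 0 or 2 or PM2.5 0 or 2, at 4-weeks FA 1 or 2 or PM2.5 2, with adjusted p = 0.0524 to 0.0784 in limma). The Sgk1 call was also lost in a fit on the compared groups alone (-1.01, adjusted p = 0.0772) and under quantile normalization (-0.77, 0.107). Without the 32-weeks libraries numbered 2, Klf9 passed, with 1.32 and adjusted p = 0.00369, and also without the PM2.5 one of them alone (1.26, 0.0116). Zfp36 alone of the 8 had all 32-weeks libraries on one side of all 4-weeks libraries in each cell type, which held for 3.86% of all genes in TR-AΦ and 7.72% in monocytes.

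Split by exposure, FA mice gave 2 of 8 calls in TR-AΦ, Fkbp5 with 1.85 ± 0.34 (adjusted p = 0.0179 in limma) and Klf9 with 1.34 ± 0.28 (0.0432), where 0.782% of all genes passed. Single omissions ended both calls while the differences stayed near their size (1.65 to 2.06 for Fkbp5 and 1.15 to 1.48 for Klf9): the Fkbp5 call was lost without FA library 1 or 2 at 32-weeks or FA library 0 or 1 at 4-weeks (adjusted p = 0.0598 to 0.088), and the Klf9 call without any 1 of the 6 libraries (0.0606 to 0.182). Without the 4-weeks libraries numbered 2 the Klf9 call was lost as well (1.40, adjusted p = 0.066 in limma). In PM2.5 mice 0 of 8 passed in TR-AΦ, where 1.05% of all genes did, and 2 of the 8 had an unadjusted p under 0.05, against 15.2% of all genes, Zfp36 with -1.11 (adjusted p = 0.0665) and Errfi1 with -1.05 (0.138). In monocytes of FA mice Fkbp5 rose by 3.32 ± 0.62, a 10.02-fold difference (adjusted p = 0.00608), as the single call of the 8 where 7.21% of all genes passed, and Sgk1 stood at -1.32 (0.0685). In monocytes of PM2.5 mice Zfp36 fell by 0.96 (adjusted p = 0.0407), where 2.42% of all genes passed, a call lost without any 1 of the 6 libraries (0.0731 to 0.103), with the difference between -0.83 and -1.10 each time. This Zfp36 call was also lost without the 4-weeks libraries numbered 2 (-1.07, adjusted p = 0.0783 in limma) or the 32-weeks ones (-0.83, 0.148). Fkbp5, called in FA mice, had smaller differences that were not called in PM2.5 mice, 0.43 ± 0.34 in TR-AΦ (0.598) and 0.90 ± 0.62 in CD45.2 monocytes (0.517), and the test of that contrast between exposures is the change of the PM2.5 effect with time given above (adjusted p = 1). Without the 32-weeks libraries numbered 2, Fkbp5 was called in CD45.2 monocytes of PM2.5 mice too (1.64, adjusted p = 0.0486 in limma).

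Fkbp5, Klf9, Tsc22d3 and Zfp36 also stand in gene lists that the study drew from these same libraries, so their differences here are not independent of that choice.

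The change with time was called different between cell types for 1 of the 8 genes. Sgk1 differed by 0.40 in TR-AΦ and by -1.01 in CD45.2 monocytes between the times, an interaction of 1.41 ± 0.34 with adjusted p = 0.00879 in limma, where 7.88% of 13307 genes passed. Without the 32-weeks libraries numbered 2 this interaction was 1.24 with adjusted p = 0.065. The other 7 genes did not pass this test, but in the setting without those libraries Fkbp5 did (-1.24, adjusted p = 0.0139), against -0.97 and 0.298 with all libraries.

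**Figure D4:**
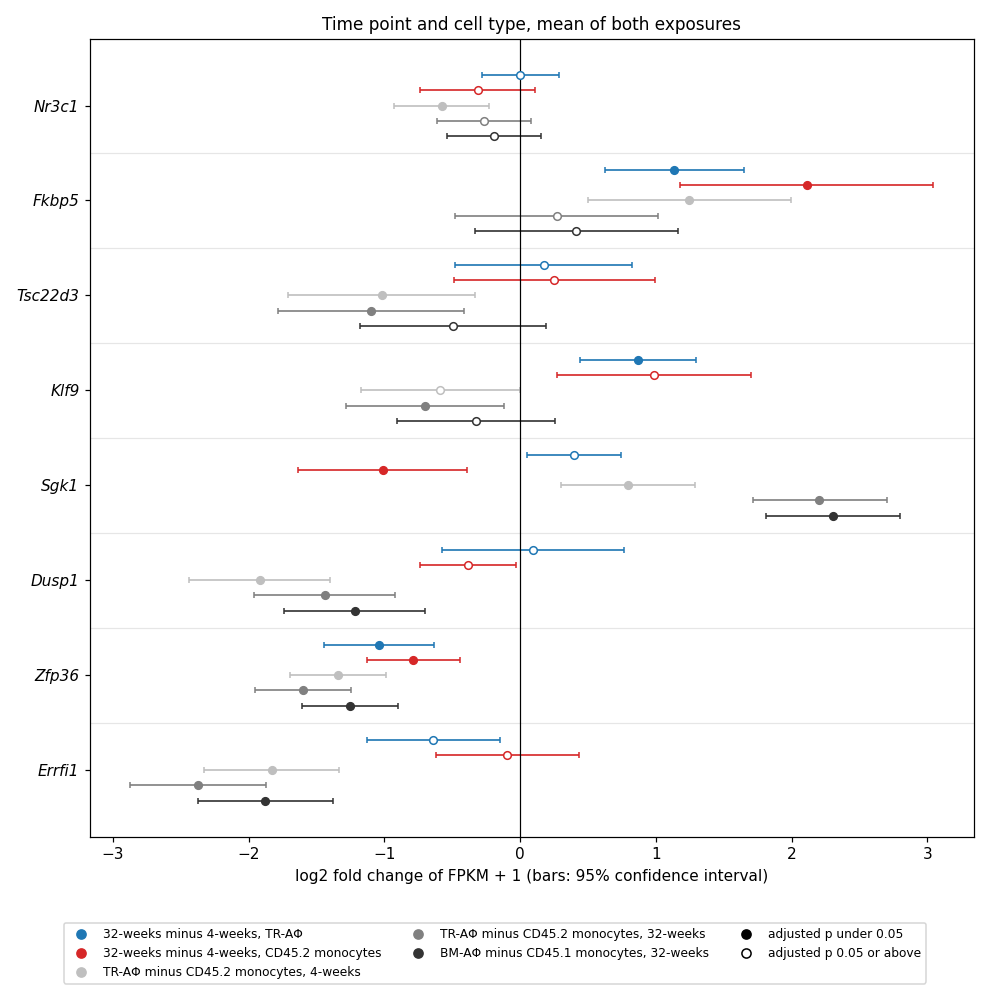
Differences in log2(FPKM + 1) between 32-weeks and 4-weeks in each cell type, and between AΦ and monocytes at each time and origin, with 95% intervals from limma and filled points where the adjusted p is under 0.05. Fkbp5 rises with time by 1.14 in TR-AΦ and 2.11 in CD45.2 monocytes, and Zfp36, Dusp1 and Errfi1 lie below 0 in each comparison of AΦ with monocytes.

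AΦ and monocytes differed in 4 to 7 of the 8 genes, beside 47.3% to 50.9% of all genes tested. TR-AΦ against CD45.2 monocytes gave 7 of 8 calls at 4-weeks, where 48.2% of all genes passed, and 6 of 8 at 32-weeks, where 47.3% did, and BM-AΦ against CD45.1 monocytes gave 4 of 8, where 50.9% did. Errfi1 was lower in AΦ by a factor of 3.55 at 4-weeks and of 5.18 and 3.68 at 32-weeks in CD45.2 and CD45.1 cells, with adjusted p of 4.12e-07, 4.87e-09 and 2.77e-07. Dusp1 was lower in AΦ by factors of 3.78, 2.71 and 2.33 (3.85e-07, 2.99e-05 and 0.000225), and Zfp36 by factors of 2.54, 3.03 and 2.38 (2.42e-07, 1.33e-08 and 7.82e-07). Sgk1 was higher in AΦ, 1.74-fold at 4-weeks and 4.61-fold and 4.94-fold at 32-weeks (adjusted p = 0.00728, 1.55e-08 and 6.96e-09), and the 4-weeks call was lost in a fit on the compared groups alone (0.054). Fkbp5 was 2.37-fold higher in TR-AΦ at 4-weeks (0.00571) and was not called at 32-weeks, with ratios of 1.21 and 1.33.

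Nr3c1, Tsc22d3 and Klf9 were called in part of these comparisons. Nr3c1 was lower in TR-AΦ at 4-weeks, with -0.58 ± 0.17 (adjusted p = 0.00587 in limma), and was not called at 32-weeks. Tsc22d3 was lower in TR-AΦ by factors of 2.03 at 4-weeks (0.013) and 2.14 at 32-weeks (0.00795), and the 4-weeks call was lost without the libraries numbered 2 (adjusted p = 0.0918). Under quantile normalization the 4-weeks calls of both Nr3c1 (0.0699) and Tsc22d3 (0.0981) were lost. Klf9 was lower in TR-AΦ at 32-weeks by 0.70 ± 0.28 (0.0434), a call that 6 of the 12 single-library omissions ended (FA libraries 0 and 2 and PM2.5 library 2 of TR-AΦ, FA library 0 and PM2.5 libraries 0 and 1 of CD45.2 monocytes, adjusted p = 0.0738 to 0.149), as did 4 alternative settings (0.0534 to 0.134). At 4-weeks the Klf9 difference was -0.59 ± 0.28 and was not called (adjusted p = 0.091 in limma). A fit on the compared groups alone called it (0.000787).

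Origin of the cells made no called difference. At 32-weeks BM-AΦ against TR-AΦ gave 0 of 8 calls, where 0.316% of all genes passed, and CD45.1 against CD45.2 monocytes 0 of 8, where 0.669% did, and 0 of the 8 reached an unadjusted p under 0.05 in either comparison, against 7.45% and 9.59% of all genes. The difference of the PM2.5 effect between origins gave 0 calls in limma and 0 of 8 at an unadjusted p under 0.05 in AΦ (0.0158% of all genes called) and in monocytes (0%). Between the 2 times the PM2.5 effect gave 0 calls in TR-AΦ (0.0079% of all genes called) and 0 in CD45.2 monocytes (0.00778%), with 2 of 8 at an unadjusted p under 0.05 in each, Fkbp5 and Klf9 in TR-AΦ and Fkbp5 and Dusp1 in monocytes, against 3.0% and 3.76% of all genes.

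The rest of the glucocorticoid pathway was followed in fixed lists, to be read beside the 2.56% of all genes that rose and 3.35% that fell with time in TR-AΦ, and the 7.06% and 7.83% in CD45.2 monocytes. Inflammatory genes that glucocorticoids repress, mostly cytokines and chemokines, were lower at 32-weeks: 10 of 14 fell and 0 rose in TR-AΦ, with a median of -2.61 over the list beside 0.03 over all genes, and 9 of 15 fell and 0 rose in CD45.2 monocytes, with a median of -1.50 beside -0.05. In TR-AΦ the chemokine Cxcl10 fell by 5.60 (adjusted p = 2.04e-06 in limma), from a mean of 164 FPKM in FA at 4-weeks to 2.37 at 32-weeks, and Cxcl1, Il23a and Il1b fell by 3.84, 3.38 and 3.10. In monocytes Il6 fell by 3.02, Cxcl10 by 2.23, Tnf by 2.18 and Ccl5 by 2.07. Without the 4-weeks libraries numbered 2, 8 of 14 fell in TR-AΦ and 6 of 15 fell and 1 rose in monocytes, the matrix protease Mmp9 (2.48, adjusted p = 0.00537 in limma), and without the 32-weeks ones 9 of 14 and 9 of 15 fell. The share of all genes called in either direction was 6.62% in TR-AΦ and 9.16% in monocytes without the 4-weeks ones. It was 2.21% and 14.1% without the 32-weeks ones. Ccl5 was not called in monocytes in either case (-1.21, adjusted p = 0.0991, and -1.77, 0.122). Other genes that glucocorticoids induce were called, with all libraries, in both directions in monocytes and in 1 in TR-AΦ. In TR-AΦ 0 of 20 rose and 5 fell, among them the NF-κB inhibitors Tnfaip3 (-2.44) and Nfkbia (-1.83), the metallothionein Mt2 (-1.38) and the repressor Bcl6 (-0.78), while in monocytes 4 of 25 rose and 6 fell, led by the haemoglobin scavenger receptor Cd163 (4.63), the efferocytosis receptor Mertk (3.40), Il10 (-2.20) and Mt1 (1.86). Without the 32-weeks libraries numbered 2, 2 of 20 of these induced genes rose and 4 fell in TR-AΦ, and 6 of 25 rose and 5 fell in monocytes. Without the 4-weeks ones 0 rose and 3 fell in TR-AΦ, and 2 rose and 5 fell in monocytes. Cd163 and Mertk are also macrophage genes, and AΦ marker genes changed over time in the same CD45.2 monocytes. Of 9 tested, 4 rose and 3 fell, led by Ear1 (4.20), Mrc1 (3.35), Plet1 (2.95) and Fabp4 (-2.19), while their summed level was 442 to 783 FPKM at 4-weeks and 441 to 1718 at 32-weeks. Of the T and NK markers Cd4 rose (3.28) and Gzma fell (-3.05). The part of other cells in the time changes in monocytes, those of the 8 genes included, was not tested.

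Of the immediate early genes, which tissue digestion and sorting can raise, 7 of 19 fell in TR-AΦ, led by Egr1 (-2.76), Egr3 (-2.69), Hspa1a (-2.66) and Ppp1r15a (-2.09), and 3 of 19 in monocytes, Ppp1r15a (-1.54), Nr4a1 (-1.27) and Ier2 (-0.95), a share nearer to that of all genes, with 0 rising in either. Zfp36 and Dusp1 belong to the same class of rapidly induced genes, and the part of cell handling in their values was not tested. Of the clock output genes 5 of 13 rose and 1 fell in monocytes, among them Nr1d1 (2.62) and Dbp (2.34), a repressor and an activator of the daily cycle, Bhlhe41 (1.71) and Bhlhe40 (-1.59), while in TR-AΦ 0 of 11 rose and 1 fell, Cry1 (-0.76). Without the 32-weeks libraries numbered 2, 3 of 11 rose in TR-AΦ, Nr1d1 among them (2.10, adjusted p = 0.00256 in limma), and 1 fell, where 2.21% of all genes were called. In monocytes 7 of 13 rose and 2 fell in that setting, where 14.1% of all genes were called. Without the 4-weeks ones 0 rose and 1 fell in TR-AΦ (6.62% of all genes), and 4 rose and 1 fell in monocytes (9.16%). Mean Nr1d1 in CD45.2 monocytes was 1.37 ± 0.529 FPKM in FA at 4-weeks and 15.6 ± 11.04 at 32-weeks. The hour of harvest is not given in the sources used here, so its part in the rise of Fkbp5 was not tested.

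Calls with time in the machinery around the receptor stand beside 5.91% of all genes called in TR-AΦ and 14.9% in CD45.2 monocytes. Of 10 chaperone genes 1 fell in TR-AΦ, Dnajb1 (-1.21), and 2 in monocytes, Hsp90aa1 (-1.25) and Stip1 (-1.16). Without the 32-weeks libraries numbered 2, 0 of 10 were called in either cell type, where 2.21% of all genes in TR-AΦ and 14.1% in monocytes were. Without the 4-weeks ones 1 rose and 1 fell in TR-AΦ (6.62% of all genes called) and 1 fell in monocytes (9.16%). Coregulators gave 0 of 14 calls in TR-AΦ. Hsd11b1, the enzyme that regenerates active corticosterone inside cells, fell by 2.12 in CD45.2 monocytes, from 19.7 ± 3.78 FPKM in FA at 4-weeks to 2.92 ± 1.20 at 32-weeks, as 1 of 5 steroid receptor and metabolism genes tested there, and 0 of 4 were called in TR-AΦ. Among paralogs of the 8 genes Dusp2 fell in both cell types (-2.22 in TR-AΦ, -1.47 in monocytes), as 1 of 11 and 1 of 2 calls among 12, the other being Dusp5 (-1.18). Without the 32-weeks libraries numbered 2, 0 of 11 paralogs were called in TR-AΦ, so the Dusp2 call was lost there, and 2 of 12 fell in monocytes. Without the 4-weeks ones 1 of 11 and 2 of 12 fell.

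Between cell types, 22.6%, 23.6% and 27.1% of all genes were higher in AΦ and 25.5%, 23.7% and 23.8% lower at 4-weeks and, for CD45.2 and CD45.1 cells, at 32-weeks, and the lists are given in the same order. Of 25 other induced genes 16, 16 and 18 were lower in AΦ and 5, 3 and 3 higher. Of 19 immediate early genes 8, 15 and 9 were lower and 2, 1 and 1 higher, and of 15 repressed inflammatory genes 7, 9 and 8 were lower and 4, 1 and 2 higher. Of 14 coregulators 9, 5 and 7 were lower and 1 higher each time, of 12 paralogs 8, 6 and 9 lower and 1 higher each time, of 13 clock genes 4, 6 and 5 lower and 4, 3 and 5 higher, and of 10 chaperones 0, 1 and 1 lower and 2, 2 and 4 higher. At 4-weeks Mertk (5.16) and Mt2 (3.55) were among the induced genes higher in TR-AΦ, and Zbtb16 (-3.71) and Bcl6 (-3.21) among those lower. Hsd11b1 was lower in TR-AΦ (-2.502), and Nr3c2, the mineralocorticoid receptor, which also binds corticosterone, was higher (1.69); 1 of the 5 steroid genes was higher and 4 were lower at 4-weeks, and 1 higher and 2 lower in each comparison at 32-weeks. In every comparison of PM2.5 with FA, each of these lists had 0 called genes in limma.

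**Figure D5:**
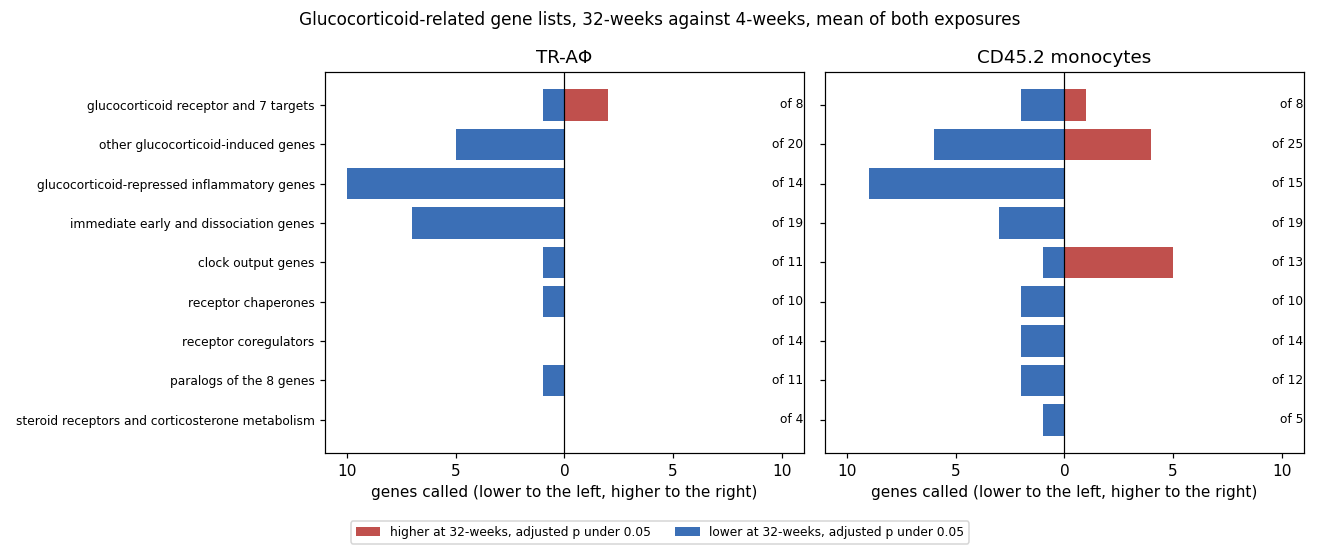
Number of genes called higher and lower at 32-weeks against 4-weeks in each glucocorticoid-related list (limma, adjusted p at 0.05), for TR-AΦ and CD45.2 monocytes, with the number tested at the right. The repressed inflammatory genes have 10 of 14 and 9 of 15 lower and 0 higher.

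Within a cell type, Fkbp5 and Klf9 varied together. Pearson's r of log2(FPKM + 1) was 0.88 over the 18 AΦ libraries and 0.85 over the 18 monocyte libraries, and for deviations from group means 0.66 and 0.85; these points share mice, times and exposures, so r is given as a description. Tsc22d3 and Dusp1 had 0.88 for deviations in AΦ, Tsc22d3 and Sgk1 0.87 in monocytes, and Dusp1 and Zfp36 0.68 in AΦ and 0.69 in monocytes. Among all genes, those most like Fkbp5 over the libraries of a cell type, times included, were Klhl6 (0.90), Cytip (0.89) and Pnpla2 (0.89) in AΦ and Rnf169 (0.97), Rassf2 (0.92) and Tex264 (0.92) in monocytes. For Klf9 they were Sla (0.93), Cytip (0.92) and Fkbp5 (0.88) in AΦ and Rnf169 (0.91), Mt1 (0.88) and Irf2bp2 (0.88) in monocytes. Zfp36 was most like Egr1 (0.94), Ppp1r15a (0.93) and Sqstm1 (0.93) in AΦ and Nfkbia (0.94), Ppp1r15a (0.91) and Nfkbiz (0.91) in monocytes. Sgk1 in monocytes was nearest to Il12rb2 (0.93), Nkg7 (0.92) and Fpr1 (0.92), of which the first and second are genes of T and NK cells, and in AΦ to Akirin1 (0.93). Dusp1 in AΦ was nearest to Gm37352 (0.87), Jund (0.86) and Rhob (0.85), Errfi1 to Zfp516 (0.92) in AΦ and Crem (0.90) in monocytes, Nr3c1 to 1700020I14Rik (0.93) and Clec7a (0.93), and Tsc22d3 to Ywhah (0.83) and Trim65 (0.89).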

How the data were processed

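RNA-seq libraries (SMART-Seq stranded kit per the labels) were aligned by the authors with STAR to mm10 and quantified with Cufflinks and Cuffdiff, and the authors deposited FPKM values per gene for all 36 libraries in 1 table. FPKM does not keep the read counts, so depth and counting error are unknown. A gene entered a fit when its FPKM averaged 1 or more there (12665 in AΦ, 12856 in monocytes, 13307 in both), and log2(FPKM + 1) was tested with limma 3.58.1 in R 4.3.3, all groups of a cell type sharing 1 spread, with Benjamini-Hochberg adjustment over all genes of a comparison at 0.05. There were 22 comparisons, of exposure, time, cell type and origin and of differences between these. The fit was tested on simulated data. The p-values take the 3 libraries of a group as separate mice and ignore that populations of one condition share mice.

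The 8 genes and 18 further lists were chosen with earlier results of these data known. Named genes are all 8, at most 4 called genes per list and comparison with the largest change, and per gene and cell type the 3 genes of highest Pearson's r over 18 libraries. The lists hold glucocorticoid-induced and repressed genes, chaperones, coregulators, steroid genes, paralogs, clock and immediate early genes, and markers of 10 cell types. Alternatives were a pseudocount of 0.1, no filter, quantile normalization, median ratio scaling, a fit on the compared groups alone, a replicate block and leaving out each library. Gene starts in the table were raised by 1 to browser coordinates, because 11060 of 13653 genes with the same identifier and end start 1 base lower there than in GENCODE M21. Promoters are from RefSeq (GRCm38.p6), with none given for Nr3c1. Figures were drawn with matplotlib 3.10.9 and permutation tests run in scipy 1.17.1. The result for coregulators over time in monocytes is not reported here.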

Additional observations from a re-analysis of the deposited data

Results flagged for a closer look

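Sgk1 was singled out because its change between 4-weeks and 32-weeks differed between cell types by a test of the difference itself: 1.41 on the log2 scale between TR-AΦ and CD45.2 monocytes, with adjusted p = 0.00879 in limma, and 1.24 with adjusted p = 0.065 without the 32-weeks libraries numbered 2.

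Fkbp5 was singled out because its PM2.5 differences had opposite signs at the 2 times, with no overlap of the libraries except in TR-AΦ at 32-weeks. PM2.5 libraries were all above FA libraries at 4-weeks in TR-AΦ (0.38) and CD45.2 monocytes (1.22), and all below them at 32-weeks in BM-AΦ (-1.06), CD45.1 monocytes (-1.28) and, against TR-AΦ at 4-weeks, CD45.2 monocytes (-1.21). Without PM2.5 library 2 the last 3 values were -0.73, -0.52 and -0.47. The differences between these populations were not tested. Within CD45.2 monocytes the change of the PM2.5 effect with time was tested and gave adjusted p = 1. Within TR-AΦ that change was also tested and not called, and there the 32-weeks ranges overlapped (-1.04). In the comparisons where the Fkbp5 ranges did not overlap, the same held for 5.82% to 8.89% of all genes.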

How the results depend on the processing

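Directions of called genes held under every alternative run. Of the counts of called genes among the 8, 152 of 163 alternatives and 204 of 216 single-library omissions stayed within 1.5 times the count reported. Every comparison of PM2.5 with FA entered with a count of 0, and a count that went from 3 to 2 stayed within that rule. The tally therefore does not show that single calls held. Klf9 in TR-AΦ and Sgk1 in monocytes lost their calls over time on single omissions, as given above. For 32-weeks against 4-weeks in TR-AΦ of FA mice the count went from 2 to 1 without a filter or without the 4-weeks libraries numbered 2, to 0 on the compared groups alone, and to 0 to 1 on leaving out 1 library. In CD45.2 monocytes of PM2.5 mice it went from 1 to 0 with median ratio scaling, no filter, the compared groups alone, or without the 4-weeks libraries numbered 2, to 2 with quantile normalization, and to 0 on leaving out any library. In CD45.2 monocytes of FA mice it was 2 without the 32-weeks libraries numbered 2. The 2 settings that drop numbered libraries were chosen after seeing the data. The cause of these shifts was not tested. Counts over all genes with PM2.5 stayed at 11 or fewer in the fit on compared groups alone, which otherwise gave 395 in place of 748 for time in TR-AΦ, 14 and 18 in place of 99 and 133 for FA and PM2.5 apart, and 145 and 18 in place of 927 and 311 in monocytes. Without the 32-weeks libraries numbered 2 time in TR-AΦ gave 280, and without the 4-weeks ones monocytes gave 1177 in place of 1914.

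The labels give groups the same replicate numbers, but by the rule used here they were not taken as pairs: over all genes, in 0 of 66 pairs of groups did all same-numbered libraries have r over 0.1 (range -0.10 to 0.21), and among groups of one exposure and time 26 of 42 libraries were most like their own number, where 14 would be if numbers meant nothing, a hint from the data and not from the design. With the number as a block, 2 of 8 genes were called for time in TR-AΦ of PM2.5 mice in place of 0 (Zfp36, 0.0259, and Errfi1, 0.0478, adjusted p), and 2 in place of 1 for the difference in time change between cell types, with Fkbp5 added (0.0164). The block also added Errfi1 for time in TR-AΦ (0.0416), Klf9 for time in monocytes (0.026) and at 4-weeks between cell types (0.00664), and Tsc22d3 between BM-AΦ and CD45.1 monocytes (0.0289). Over all genes it gave 1308 in place of 748 calls for time in TR-AΦ and 1808 in place of 1049 for the difference between cell types.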
